A study of Mus musculus with 12 samples.

Results

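The gastrocnemius, the large calf muscle, was compared between mice carrying the C26 tumour and non-tumour-bearing (NTB) mice, on 3 arrays per group. These are 6 of the 12 arrays of the study, taken by their titles. The other 6, from heart, were left out of the comparison and served only in a check of tissue markers and in an alternative model. All 23819 of the 35556 array rows that carry a gene symbol were tested. C26 is a mouse colon carcinoma line that is widely used as a model of cancer cachexia. Both groups were Balb/c-DBAj hybrid mice aged 10 to 11 weeks. C26 mice had received 1000000 tumour cells in 100 µl of RPMI/PS medium under the skin of the upper right flank, and NTB mice 100 µl of the medium alone. The series' design text gives 3 biological replicates a group, and the time from injection to collection is not given in the sources used here. Whole muscles were snap-frozen, so fibres, vessels, nerve, fat, tendon and blood were measured together. Fewer cells of a type and less RNA per cell cannot be told apart in such tissue.

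Cachexia is the loss of muscle and fat that accompanies many cancers. In skeletal muscle it is known for faster protein breakdown, in which ubiquitin ligases such as MuRF1 and atrogin-1 mark proteins for the proteasome, and autophagy delivers proteins and organelles to the lysosome. Glucocorticoids, FoxO transcription factors and cytokines of the interleukin-6 family are known inducers of these pathways. Muscle fibres are also large consumers of ATP and depend on calcium release from the sarcoplasmic reticulum for contraction.

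The tissue label was checked against marker genes. The 12 markers of skeletal muscle fibres were all higher in NTB gastrocnemius than in NTB heart, and 0 of 11 measured cardiac markers were. The median difference of the 12 was 7.45 on the log2 scale. The mean correlation of an array with the others of its group was 0.986 to 0.988 in NTB, 0.980 and 0.983 for C26 arrays 1 and 2, and 0.971 for C26 array 3. C26 array 3 therefore stood apart, with a residual SD of 0.331 against 0.177 to 0.233 in the other 5 arrays. Its limma array weight was 0.23, against 4.19 for C26 array 2 and 0.91 to 1.18 for the rest. Its mean marker level was higher for T cells (6.25, against 5.28 and 5.28 in C26 arrays 1 and 2 and 5.32 to 5.55 in NTB), for B cells (5.72, against 4.53 and 4.52, and 4.62 to 4.66) and for adipocytes (8.10, against 6.77 and 7.39, and 6.71 to 6.89). None of the 8 T cell, 7 B cell and 11 adipocyte markers was called at an adjusted p under 0.05 (limma), and 0, 0 and 5 had an unadjusted p under 0.05. Macrophage markers lay at 6.29, 7.12 and 7.17 in C26 arrays 1 to 3 and at 6.40 to 6.83 in NTB, with 0 of 12 called and 1 at an unadjusted p under 0.05. Of 8 erythroid markers 3 were called higher (Alas2, and the globin genes Hba-a1 and Hbb-b1, whose near-identical copies the array may not separate), and the mean level was 7.36 to 7.54 in C26 and 6.80 to 6.90 in NTB. Where leaving out 1 array or adding the replicate block (the array number as a term) moved a count of 2 or more calls in a gene list by over 1.5 times, the most extreme such counts are given beside it.

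**Figure D1:**
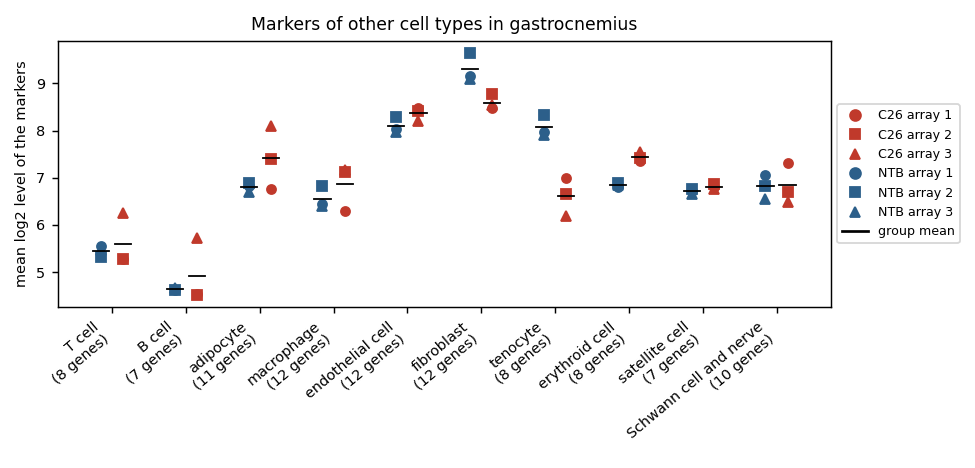
Mean log2 level of the marker genes of 10 cell types in each array (circle, square and triangle for arrays 1, 2 and 3, red for C26 and blue for NTB, black bars for group means). C26 array 3 is highest for T cell, B cell and adipocyte markers, while tenocyte and fibroblast markers are lower in all 3 C26 arrays than in the NTB arrays and erythroid markers are higher.

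In gastrocnemius 466 rows rose and 385 fell with the tumour at an adjusted p under 0.05 (limma, Benjamini-Hochberg over 23819 rows). This is 3.57% of the rows tested, with 1.96% higher and 1.62% lower, and it covers 412 and 348 named genes. Counts of calls in the gene lists below are to be read against these shares. The median size of a difference was 0.14 on the log2 scale over all rows and 1.01 over the called rows, and the smallest called was 0.52. At least 1 log2 unit separated the means in 217 rows that rose and 215 that fell, and at least 2 units in 20 and 49. The 3 C26 arrays lay outside the range of the 3 NTB arrays for all 851 called rows. Among the 23819 rows tested they lay above it for 2357 and below it for 2165. In the 6 fits that each left out 1 array, 207 of the 851 (115 higher, 92 lower) were called every time. The direction of the 851 could not change in these fits, since their groups did not overlap. The count of calls was 1698 without C26 array 3 (1161 higher, 537 lower), 899 without C26 array 1, 290 without C26 array 2, and 269, 265 and 263 without NTB arrays 1, 2 and 3. With the replicate block, which adds the array number as a term, it was 2075 (1117 higher, 958 lower), and all 851 were among them. All p-values measure the spread between these samples.

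**Figure D2:**
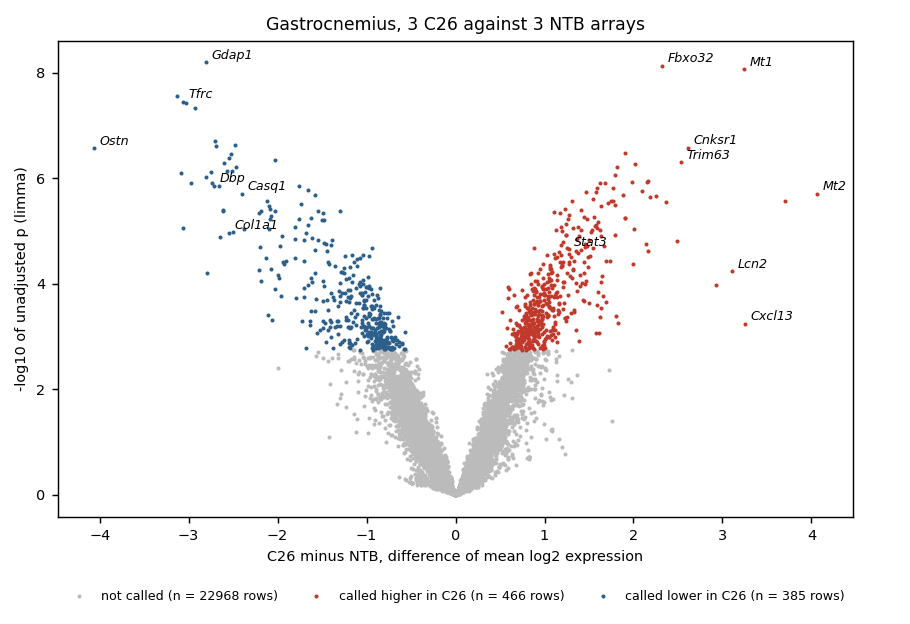
Difference of mean log2 expression, C26 minus NTB (horizontal), against -log10 of the unadjusted limma p (vertical) for the 23819 rows with a gene symbol, 1 point a row. Red marks the 466 rows called higher in C26 and blue the 385 called lower. Gene names mark examples such as Mt1, Mt2, Fbxo32 and Trim63 at the right and Ostn, Gdap1 and Tfrc at the left.

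The largest rise was that of Mt2, a metallothionein that binds zinc and copper. It lay at 12.40, 12.47 and 12.26 in C26 arrays 1 to 3 and 9.07, 8.64 and 7.24 in NTB arrays 1 to 3, a difference of 4.06 ± 0.39 (± is the standard error of the fit throughout, 16.7-fold, limma adjusted p = 0.00104). Mt1, its neighbour and the other widely expressed metallothionein, lay at 12.23, 12.44 and 12.62 in C26 arrays 1 to 3 and 9.46, 9.07 and 9.01 in NTB arrays 1 to 3 (3.25 ± 0.17, 9.49-fold, adjusted p = 6.81e-05). Neither group overlapped, and the 3 C26 arrays agreed closely while NTB array 3 had the lowest Mt2. Both stayed called whichever 1 array was left out. The proximal promoters of both genes and of Trim63 are shown because they hold matches to the motifs of the pathways these genes are known for. They cover 250 bases before the RefSeq start (assembly GRCm38.p6), 5′ to 3′ on the gene's strand, with matches in capitals.
Mt1, chr8:94178839-94179088 (+): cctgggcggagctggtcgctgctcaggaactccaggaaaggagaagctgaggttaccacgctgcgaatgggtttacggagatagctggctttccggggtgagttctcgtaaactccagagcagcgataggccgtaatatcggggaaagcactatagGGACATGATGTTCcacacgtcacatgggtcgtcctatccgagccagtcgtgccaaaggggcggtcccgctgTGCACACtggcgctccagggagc
Mt2, chr8:94172368-94172617 (+): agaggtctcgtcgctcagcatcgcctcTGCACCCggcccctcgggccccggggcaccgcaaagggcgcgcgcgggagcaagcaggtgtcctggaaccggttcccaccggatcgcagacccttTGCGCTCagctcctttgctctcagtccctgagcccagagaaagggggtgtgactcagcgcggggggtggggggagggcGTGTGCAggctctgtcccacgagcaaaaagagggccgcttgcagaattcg
Trim63, chr4:134314870-134315119 (+): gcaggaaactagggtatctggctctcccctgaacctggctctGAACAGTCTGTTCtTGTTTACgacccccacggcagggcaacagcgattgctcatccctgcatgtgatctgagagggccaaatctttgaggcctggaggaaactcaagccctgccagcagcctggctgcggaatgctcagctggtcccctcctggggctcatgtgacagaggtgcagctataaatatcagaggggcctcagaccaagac
The capitals are matches to the metal response element (TGCACNC or TGCGCNC), the glucocorticoid response element (GNACA, any 3 bases, then TGTNC) and, in Trim63, the FoxO motif (GTAAACA), each searched on both strands. Mt1 holds 1 metal response match and 1 glucocorticoid match, and Mt2 holds 3 metal response matches. Trim63 holds a FoxO match that starts 194 bases before the start and a glucocorticoid match that starts 208 bases before it. A match is a description of these letters. A metal response match stood in 29.1% of the promoters of 14334 measured genes, in 33.1% of those of genes that rose and in 37.5% of those of genes that fell. A FoxO match stood in 3.1%, 2.5% and 1.9%, and a glucocorticoid match in 0.4%, 1.2% and 0.8% (4 of 326 genes that rose). Matches to the clock E-box (CACGTG) stood in 8.3%, 10.1% and 8.0%, and to the STAT motif (TTCCNGGAA) in 1.2%, 1.5% and 1.1%. Another 10 genes searched in this way held no match in this window to the motifs chosen for them: Dbp and Arntl (E-box), Stat3 and Socs3 (STAT), Foxo1 and Igfbp5 (FoxO), Pdk4 and Cdkn1a (FoxO and glucocorticoid, and STAT for Cdkn1a), Lcn2 (STAT and glucocorticoid) and Ppargc1a (FoxO). Pdk4 and Ppargc1a also held no ERR motif (TCAAGGTCA), which stood in 0.3% of all promoters.

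Among the other large rises, Trim63 (MuRF1), the ubiquitin ligase of thick filament proteins, lay at 12.68, 12.63 and 12.97 in C26 arrays 1 to 3 and 10.45, 9.74 and 10.49 in NTB arrays 1 to 3 (2.53 ± 0.21, 5.78-fold, adjusted p = 0.000669). Fbxo32 (atrogin-1), the muscle F-box ligase, lay at 12.90, 12.87 and 12.77 in C26 arrays 1 to 3 and 10.59, 10.38 and 10.60 in NTB arrays 1 to 3 (2.33 ± 0.12, 5.01-fold, adjusted p = 6.81e-05). The groups of both genes were far apart on all 3 arrays. Cnksr1, a scaffold protein of Ras signalling, lay at 10.84, 11.07 and 10.75 in C26 arrays 1 to 3 and 8.31, 8.59 and 7.90 in NTB arrays 1 to 3 (2.62 ± 0.20, adjusted p = 0.000538). The titin-associated stretch gene Ankrd1 rose by 2.36, Bex1 by 2.49, the prolyl hydroxylase Egln3 by 2.19, the cell cycle inhibitor Cdkn1a by 2.17, the transcription factor Cebpd by 2.16, the mitochondrial acetyl-CoA synthetase Acss1 by 2.15 and the cortexin Ctxn3 by 2.14. Cxcl13, a B cell chemokine, lay at 7.19, 9.41 and 10.29 in C26 arrays 1 to 3 and 5.42, 6.06 and 5.65 in NTB arrays 1 to 3 (3.25 ± 0.64, 9.54-fold, adjusted p = 0.0261). Its C26 arrays ranged from 7.19 in array 1 to 10.29 in array 3, in the order of the adipocyte markers, and their part in the result was not tested. Lipocalin 2 (Lcn2), an iron-binding defence protein, lay at 7.63, 9.74 and 9.21 in C26 arrays 1 to 3 and 5.68, 5.95 and 5.61 in NTB arrays 1 to 3 (3.11 ± 0.45, 8.64-fold, adjusted p = 0.00687). Haptoglobin (Hp), which binds free haemoglobin, lay at 8.11, 9.09 and 10.24 in C26 arrays 1 to 3 and 6.50, 6.36 and 5.78 in NTB arrays 1 to 3 (2.93 ± 0.45, 7.64-fold, adjusted p = 0.00985). C26 array 1 was the lowest of its group for all 3 of these, as it was for macrophage and adipocyte markers. The symbols of 2 further rows with large rises were cut to Serpina (3.71) and Slc39a1 (2.25), which fit several genes, and these stay unnamed. Of these genes, Trim63, Fbxo32, Cnksr1, Ankrd1, Bex1, Egln3, Cdkn1a, Cebpd, Acss1 and Ctxn3 stayed called in each of the 6 fits without 1 array, and the other named calls with a value here were lost in at least 1 such fit.

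**Figure D3:**
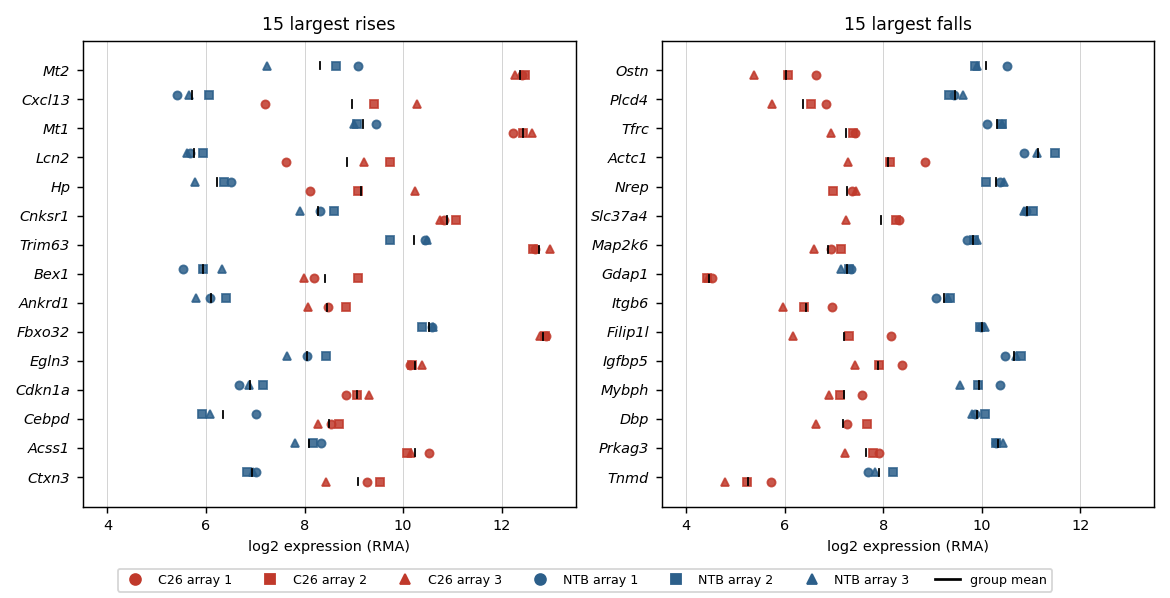
Log2 expression (RMA) of the 15 named genes with the largest rises (left) and the 15 with the largest falls (right), 1 symbol an array and a black bar for each group mean. In all 30 genes the C26 symbols lie on one side of the NTB symbols, and the spread within C26 is wide for Cxcl13, Lcn2 and Hp and narrow for Mt1, Fbxo32 and Gdap1.

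The largest fall was that of Ostn, which encodes the secreted peptide musclin (osteocrin). It lay at 6.63, 6.06 and 5.38 in C26 arrays 1 to 3 and 10.50, 9.87 and 9.90 in NTB arrays 1 to 3 (-4.07 ± 0.31, 16.7-fold lower, adjusted p = 0.000538). Gdap1, a protein of the mitochondrial outer membrane, lay at 4.52, 4.41 and 4.45 in C26 arrays 1 to 3 and 7.35, 7.31 and 7.14 in NTB arrays 1 to 3 (-2.80 ± 0.14, adjusted p = 6.81e-05). Nrep lay at 7.36, 6.99 and 7.44 in C26 arrays 1 to 3 and 10.36, 10.08 and 10.45 in NTB arrays 1 to 3 (-3.03 ± 0.18, adjusted p = 0.00015). All 3 C26 arrays lay below all NTB arrays for each of these, and Ostn was lowest in C26 array 3. The phospholipase Plcd4 fell by 3.09, the glucose-6-phosphate transporter Slc37a4 by 2.98, the p38 kinase activator Map2k6 by 2.93, the integrin subunit Itgb6 by 2.80, the growth factor binding protein Igfbp5 by 2.74 and the muscle AMP kinase subunit Prkag3 by 2.69. Filip1l, a filamin-interacting protein, fell by 2.80 on the higher-changing of its 2 rows and by 0.98 on the other. The calls of Ostn, Gdap1, Nrep, Plcd4, Slc37a4, Map2k6, Itgb6, Igfbp5 and Prkag3 were kept in every fit that left out 1 array, and the other named calls with a value here were lost in at least 1 such fit.

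Beyond Trim63 and Fbxo32, 2 further ubiquitin ligases rose. Of 30 ligases tied to muscle atrophy 4 rose and 0 fell (median 0.14, with -0.001 over all rows), the others being Ube4a (1.62 ± 0.15), a chain-elongating ligase, and Fbxo31 (1.54 ± 0.18), an F-box ligase. Ube4a lay at 10.38, 10.25 and 10.17 in C26 arrays 1 to 3 and 8.75, 8.62 and 8.55 in NTB arrays 1 to 3. The polyubiquitin gene Ubb rose by 0.59. Of 33 deubiquitinases 0 rose and Usp2 fell by 0.95, with 4 rising without C26 array 3. Leaving out each array in turn kept the calls of Ube4a and Fbxo31, and the other named calls with a value here were lost in at least 1 such fit.

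Part of the proteasome subunit genes rose. Of 21 genes of the 19S regulatory particle 11 rose and 0 fell (median 0.68), and of 14 genes of the 20S core 4 rose and 0 fell (median 0.61). Psma7, a core subunit, lay at 10.77, 11.11 and 11.02 in C26 arrays 1 to 3 and 9.29, 9.40 and 9.44 in NTB arrays 1 to 3 (1.59 ± 0.15, adjusted p = 0.000927). Psmd4, a ubiquitin receptor of the regulatory particle, lay at 10.55, 10.78 and 10.10 in C26 arrays 1 to 3 and 9.21, 9.11 and 9.15 in NTB arrays 1 to 3 (1.32 ± 0.19, adjusted p = 0.00639). C26 array 3 was the lowest of its group for Psmd4. Psmc2 rose by 1.21, Psmd11 by 1.14, Psmd2 by 1.02, Psmd8 by 0.95, Psmd3 by 0.94, Psma4 by 0.92, Psma5 by 0.97 and Psmb3 by 0.83. A second row of Psma5 gave 0.64 and was not called. The 19S count was 16 without C26 array 3 and 3 without C26 array 2 or NTB array 2 or 3. The 20S count was 8 without C26 array 3, 9 with the block, and 2 without C26 array 2 or any 1 NTB array. Of 6 immunoproteasome and PA28 genes Psme1 fell by 0.90, with 0 called when C26 array 2 or any NTB array was left out. Nploc4, a cofactor of the segregase p97, rose by 1.23 and the shuttle factor Rad23b by 0.86. Of these genes, Psma7, Psmd4, Psmd2, Psmd8, Psma4 and Nploc4 stayed called in each of the 6 fits without 1 array, and the other named calls with a value here were lost in at least 1 such fit.

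Autophagy and lysosome genes rose in part. Of 40 genes of autophagosome formation 5 rose and 1 fell (median 0.16), and of 37 lysosomal genes 5 rose and 0 fell (median 0.15). The autophagosome protein gene Map1lc3b lay at 11.28, 11.15 and 10.78 in C26 arrays 1 to 3 and 9.98, 9.68 and 9.66 in NTB arrays 1 to 3 (1.30 ± 0.17, adjusted p = 0.00467). Its relative Gabarapl1 rose by 1.60, the mitophagy receptor Bnip3 by 1.33 (1.03 on its second row), the cargo receptor Sqstm1 by 0.83 and Tax1bp1 by 0.77. Trp53inp2, an autophagy and transcription cofactor, fell by 1.66. Cathepsin L (Ctsl) lay at 10.34, 10.29 and 10.60 in C26 arrays 1 to 3 and 8.75, 8.53 and 8.57 in NTB arrays 1 to 3 (1.79 ± 0.16, adjusted p = 0.000806). The cholesterol exporter Npc1 rose by 1.72, the acid glucosidase Gaa by 1.58, the proton pump subunit Atp6v1h by 0.98 and cathepsin D (Ctsd) by 0.78. The autophagosome count was 7 rises without C26 array 3, 11 rises and 2 falls with the block, and 1 rise without C26 array 2 or NTB array 2 or 3. The lysosome count was 8 without C26 array 3 or with the block and 3 without C26 array 2 or NTB array 1 or 3. The calls of Map1lc3b, Trp53inp2, Ctsl, Npc1 and Gaa were kept in every fit that left out 1 array, and the other named calls with a value here were lost in at least 1 such fit.

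Many genes known to be induced by glucocorticoids or FoxO factors rose. Of 41 such genes 18 rose and 2 fell (median 0.81), against 1.96% and 1.62% of all rows. The list holds Mt1, Mt2, Cebpd and Cdkn1a, already named among the largest rises. Its members were chosen with earlier results of these data known, so the count describes these genes and is no further evidence. Eif4ebp1, which binds and inhibits the cap-binding factor eIF4E, lay at 10.29, 10.53 and 9.95 in C26 arrays 1 to 3 and 8.34, 8.23 and 8.25 in NTB arrays 1 to 3 (1.98 ± 0.18, adjusted p = 0.000879). Amd1, which makes the polyamine precursor decarboxylated S-adenosylmethionine, fell by 2.52, by 2.46 to 2.60 on its other rows, which cannot be told from those of its near-identical copy. Foxo1 itself was not called: it lay at 9.0, 9.84 and 9.55 in C26 arrays 1 to 3 and 9.02, 8.88 and 8.23 in NTB arrays 1 to 3 (0.76 ± 0.27, adjusted p = 0.198), and the groups overlapped. The rises were 20 without C26 array 3 and 10 without C26 array 2 or NTB array 2 or 3, and the falls were 6 with the block and 1 without C26 array 2 or any 1 NTB array. Of 45 genes of insulin and mTORC1 signalling 5 rose and 2 fell (13 and 5 with the block). The stress sensor Sesn1 rose by 1.76, Akt1 by 1.41, the phosphatidylinositol kinase subunit Pik3r1 by 1.16 and the insulin receptor Insr by 0.91, while the receptor-binding inhibitor Grb14 fell by 1.47. Without C26 array 3, 10 rose and 4 fell, and without C26 array 2 or NTB array 2 or 3, 3 rose and 1 fell. Of 37 p53 and growth arrest genes 5 rose and 1 fell, with 8 rising without C26 array 3, 3 rising without C26 array 2 or any 1 NTB array, and 4 falling with the block. Gadd45a, a stress-induced growth arrest gene, lay at 9.89, 9.86 and 9.80 in C26 arrays 1 to 3 and 8.33, 8.11 and 8.36 in NTB arrays 1 to 3 (1.58 ± 0.15, adjusted p = 0.00103). The ectodysplasin receptor Eda2r rose by 1.62, by 2.07 without C26 array 3, and the cyclin Ccng1 fell by 1.11. Leaving out each array in turn kept the calls of Eif4ebp1, Amd1, Sesn1, Akt1, Grb14, Gadd45a and Ccng1, and the other named calls with a value here were lost in at least 1 such fit.

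**Figure D4:**
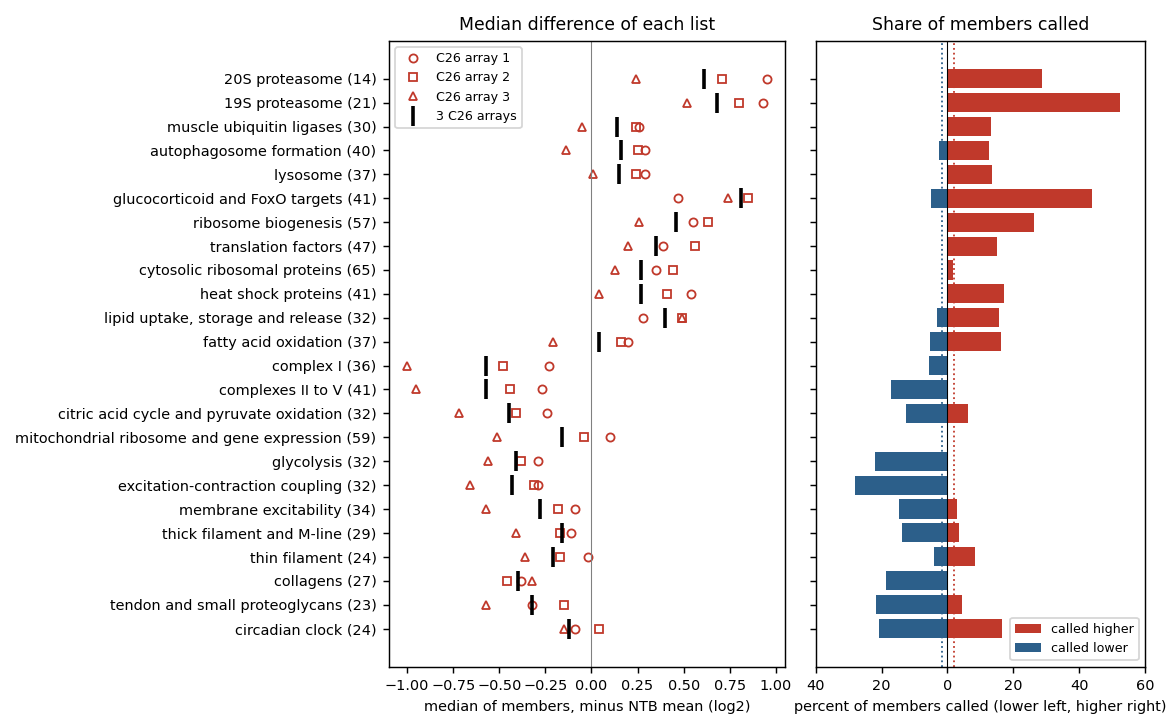
Left, the median over the members of 24 gene lists of the level in each C26 array (circle, square, triangle) and of the 3-array mean (black bar), minus the NTB mean on the log2 scale; the number of members measured is in brackets. Right, the percent of members called higher (red) and lower (blue), with dotted lines at 1.96% and 1.62%, the shares over all rows. C26 array 3 is the lowest of the 3 arrays for the complex I, complexes II to V and citric acid cycle lists.

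Part of the genes that build ribosomes and start translation rose. Of 57 genes of ribosome biogenesis 15 rose and 0 fell (median 0.46), and of 47 translation factors 7 rose and 0 fell (median 0.35). Ddx56, an RNA helicase of large subunit assembly, lay at 9.84, 9.76 and 9.38 in C26 arrays 1 to 3 and 8.07, 8.22 and 7.82 in NTB arrays 1 to 3 (1.63 ± 0.19, adjusted p = 0.00219). Tsr1, of small subunit assembly, rose by 1.48, nucleostemin (Gnl3) by 1.45, Nop14 by 1.36, Ddx21 by 1.20 and Sdad1 by 1.17. The count of biogenesis genes was 27 without C26 array 3, 24 with the block, and 5 without C26 array 2 or any 1 NTB array. Among initiation factors Eif3a rose by 1.07, Eif4g3 by 0.92, Eif4a1 by 0.88 to 1.04 on 3 of its 4 rows (0.26 on the fourth, not called), Eif3j1 by 0.78 and Eif3e by 0.70. Of 65 cytosolic ribosomal protein genes 1, Rps20 (0.74), rose, against 1.96% of all rows, and 0 fell (median 0.27). In this list 6 rose without C26 array 3, 7 with the block and 0 without C26 array 2 or any 1 NTB array. Of 22 aminoacyl-tRNA synthetase genes 3 rose, Vars by 1.04, Eprs by 0.80 and Iars by 0.65. A second row of Iars gave 0.65 as well and was not called (limma adjusted p = 0.205). Aimp2, a scaffold of the synthetase complex, lay at 8.90, 8.90 and 7.78 in C26 arrays 1 to 3 and 10.75, 10.53 and 10.30 in NTB arrays 1 to 3 (-2.0 ± 0.29, adjusted p = 0.00757). C26 array 3 was the lowest array for Aimp2. The synthetase rises were 6 without C26 array 3 or with the block and 0 without C26 array 2 or NTB array 1 or 3. Of 37 amino acid transporters and ATF4 targets 5 rose and 0 fell, led by the cationic transporter Slc7a2 (1.67), and glutamine synthetase (Glul) rose by 1.23, with 0.94 on its second row. Without C26 array 2 or NTB array 1 or 3, 1 gene of that list rose. The translation factor count was 16 without C26 array 3, 17 with the block and 0 without NTB array 2. Of these genes, Ddx56, Tsr1, Gnl3, Nop14, Ddx21 and Slc7a2 stayed called in each of the 6 fits without 1 array, and the other named calls with a value here were lost in at least 1 such fit.

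Genes of the respiratory chain had negative medians. Of 36 complex I genes 2 fell and 0 rose (median -0.57), and of 41 genes of complexes II to V 7 fell and 0 rose (median -0.57). These were called in larger number with the replicate block, 22 and 24, and were 8 and 13 without C26 array 1, with 4 in complex I without C26 array 3. Complex I had 0 calls without C26 array 2 or NTB array 1 or 2, and complexes II to V had 0 without NTB array 2 or 3. Array 3 lay lowest: its median over complex I was -1.0 against the NTB mean, with -0.48 in array 2 and -0.23 in array 1. Without C26 array 3 the medians were -0.34 and -0.35. Ndufs1, a complex I core subunit, lay at 10.77, 10.59 and 10.31 in C26 arrays 1 to 3 and 11.38, 11.48 and 11.43 in NTB arrays 1 to 3 (-0.88 ± 0.15, adjusted p = 0.0134). Cytochrome c1 (Cyc1) fell by 1.0, the succinate dehydrogenase subunits Sdhd by 0.94 and Sdhc by 0.74, and the ATP synthase subunits Atp5k by 0.86 and Atp5g3 by 0.77. Cycs, cytochrome c, fell by 0.84 on 1 of its 3 rows, the others not being called. Of 59 genes of the mitochondrial ribosome and mitochondrial gene expression 0 were called at adjusted p under 0.05 (limma, median -0.16), with 9 lower at an unadjusted p under 0.05 and 3 called lower with the block. The medians of this list against the NTB mean were 0.10, -0.04 and -0.51 in C26 arrays 1 to 3. Without C26 array 3 its median was 0.01. Every call with a value in this group of genes was lost in at least 1 fit that left out an array.

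The citric acid cycle and pyruvate oxidation gave 2 rises and 4 falls among 32 genes (median -0.45). Pdk4, the kinase that switches off pyruvate dehydrogenase, lay at 12.92, 12.84 and 12.42 in C26 arrays 1 to 3 and 11.55, 11.15 and 10.86 in NTB arrays 1 to 3 (1.54 ± 0.20, adjusted p = 0.00353). Pdp1, the phosphatase that switches it on, lay at 8.75, 8.59 and 8.27 in C26 arrays 1 to 3 and 10.58, 10.08 and 10.23 in NTB arrays 1 to 3 (-1.76 ± 0.19, adjusted p = 0.00169), while its relative Pdp2 rose by 0.92. Isocitrate dehydrogenase Idh3a fell by 0.94, the pyruvate dehydrogenase subunit Dlat by 0.97 and Sucla2 by 0.75. With the block 15 genes of this list fell, without C26 array 1 there were 8 falls, and without any 1 NTB array 2 falls and 1 rise. Glycolysis gave 7 falls and 0 rises among 32 genes (median -0.41), 12 without C26 array 1, 13 with the block and 2 without any 1 NTB array. Glycerol-3-phosphate dehydrogenase (Gpd1) lay at 9.37, 9.38 and 9.77 in C26 arrays 1 to 3 and 11.35, 11.69 and 11.55 in NTB arrays 1 to 3 (-2.02 ± 0.16, adjusted p = 0.000669). Pyruvate kinase (Pkm) fell by 0.97, the lactate transporter Slc16a3 by 1.23, Pgam2 by 0.86, Ldha by 0.82 and Eno3 by 0.81. In glycogen metabolism Pgm2, which interconverts glucose phosphates, fell by 1.95 and the phosphorylase kinase subunit Phka1 by 1.58, whereas Ugp2, which makes UDP-glucose, rose by 1.47 and the branching enzyme Gbe1 by 0.67. Leaving out each array in turn kept the calls of Pdk4, Pdp1, Idh3a, Gpd1, Pkm, Pgm2 and Ugp2, and the other named calls with a value here were lost in at least 1 such fit.

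Part of the lipid genes rose. Of 32 genes of lipid uptake, storage and release 5 rose and 1 fell (median 0.40), and of 37 genes of fatty acid oxidation 6 rose and 2 fell, with a median of 0.04 that is -0.03 after quantile normalization. The triglyceride lipase Pnpla2 lay at 11.36, 11.32 and 11.62 in C26 arrays 1 to 3 and 10.24, 10.52 and 10.19 in NTB arrays 1 to 3 (1.12 ± 0.15, adjusted p = 0.00477). Lipin (Lpin1) rose by 0.98, perilipin 4 (Plin4) by 0.97, the fatty acid transporter Cd36 by 0.89 and lipoprotein lipase (Lpl) by 0.71, and the acyltransferase Gpam fell by 0.81. Adipocyte marker level in C26 array 3 (8.10) exceeded that of C26 arrays 1 and 2 (6.77 and 7.39), and its part in these rises was not tested; Pnpla2 rose by 1.02 without that array. The acyl-CoA thioesterases Acot2 (1.99) and Acot1 (1.82), near-identical copies, rose, as did Eci2 (0.92), Acadl (0.85) and the carboxylase Acacb (0.82), while the ketone-using enzyme Oxct1 fell by 1.33. Counts of rises were 9 and 10 without C26 array 3 and 3 and 1 without C26 array 2 or NTB array 3, and 10 lipid uptake genes rose with the block. Without C26 array 2 or any 1 NTB array the falls of both lists were 0. Energy-buffer genes fell in part: of 26 genes of phosphocreatine and adenine nucleotides 2 rose and 6 fell, with 4 rises with the block, 1 rise without any 1 NTB array and 1 fall without NTB array 1 or 2. The AMP deaminase Ampd3 lay at 8.72, 9.04 and 9.22 in C26 arrays 1 to 3 and 7.38, 7.52 and 7.34 in NTB arrays 1 to 3 (1.58 ± 0.18, adjusted p = 0.00202). The cytosolic nucleotidase Nt5c1a fell by 1.61, the mitochondrial creatine kinase Ckmt2 by 1.41, adenylate kinase Ak1 by 1.19, Gamt by 1.18 and adenosine kinase Adk by 1.01. The main creatine kinase Ckm was not called, at 13.68, 13.55 and 13.37 in C26 arrays 1 to 3 and 13.65, 13.73 and 13.64 in NTB arrays 1 to 3. Of these genes, Pnpla2, Lpin1, Cd36, Acot2, Ampd3 and Ak1 stayed called in each of the 6 fits without 1 array, and the other named calls with a value here were lost in at least 1 such fit.

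Part of the genes of excitation-contraction coupling fell. Of 32 genes 9 fell and 0 rose (median -0.43), 13 with the block, 10 without C26 array 1 and 3 without NTB array 2 or 3. Calsequestrin 1 (Casq1), which stores calcium in the sarcoplasmic reticulum, lay at 11.20, 11.08 and 10.22 in C26 arrays 1 to 3 and 13.19, 13.17 and 13.36 in NTB arrays 1 to 3 (-2.40 ± 0.23, 5.29-fold lower, adjusted p = 0.00104). Junctophilin 2 (Jph2), which ties the T-tubule to the reticulum, lay at 9.01, 8.98 and 8.08 in C26 arrays 1 to 3 and 10.76, 10.78 and 10.83 in NTB arrays 1 to 3 (-2.10 ± 0.24, adjusted p = 0.00218). Stac3, a partner of the calcium channel, fell by 1.64, the channel subunit Cacna1s by 0.92, the calcium buffer parvalbumin (Pvalb) by 0.97, Calm3 by 1.70 and Calm2 by 1.21. The release channel Ryr1 (-0.16, adjusted p = 0.687) and the calcium pump Atp2a1 (-0.02, adjusted p = 0.979) were not called. Array 3 was the lowest for Casq1, Jph2, Stac3 and Pvalb, and without it Casq1 fell by 2.10. Among 34 genes of membrane excitability 5 fell and 1 rose. The water channel Aqp4, which lies in the fibre membrane, lay at 5.27, 5.18 and 5.43 in C26 arrays 1 to 3 and 7.67, 8.11 and 7.54 in NTB arrays 1 to 3 (-2.48 ± 0.19, adjusted p = 0.000538). The sodium pump subunit Atp1b2 fell by 1.93, the chloride channel Clcn1 by 1.49 and the exchanger Slc8a3 by 1.21, and the cotransporter Slc12a2 rose by 1.27. With the block 13 of this list fell, 8 fell without C26 array 1 or 3, and 3 fell without NTB array 2 or 3. The calls of Casq1, Jph2, Calm3, Aqp4, Atp1b2 and Slc12a2 were kept in every fit that left out 1 array, and the other named calls with a value here were lost in at least 1 such fit.

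The myosin heavy chains and skeletal actin were not called. The fast Myh4 lay at 13.72, 13.66 and 13.61 in C26 arrays 1 to 3 and 13.76, 13.91 and 13.81 in NTB arrays 1 to 3 (-0.16 ± 0.08, adjusted p = 0.442), Myh1 differed by -0.03, the fast oxidative Myh2 by -0.46 (adjusted p = 0.108), the slow Myh7 by -0.12 and Acta1 by -0.15. Of 29 thick filament and M-line genes 1 rose and 4 fell, among them the kinase Mylk4 (-2.21), the light chain Mylpf (-1.0) and Mybph (-2.74), which binds myosin. The rise was that of the kinase Mylk2 (0.62). Of 24 thin filament genes the cardiac actin Actc1 fell by 3.06, at 8.85, 8.13 and 7.28 in C26 arrays 1 to 3 and 10.86, 11.47 and 11.11 in NTB arrays 1 to 3, and Lmod2 (1.08), a leiomodin that lengthens thin filaments, and Nrap (0.66), a scaffold of myofibril assembly, rose. Thick filament falls were 2 without C26 array 2 or any 1 NTB array, and thin filament falls were 5 with the block and 4 without C26 array 1, with 0 rises without C26 array 2 or NTB array 1 or 2. Z-disc and stretch genes moved both ways, 5 of 32 up and 4 down: Csrp3 rose by 1.79, Xirp1 by 1.79, Ankrd2 by 1.60 and filamin C (Flnc) by 1.31, while Myoz3, a calcineurin-binding Z-disc protein, fell by 2.10. Without C26 array 1 or with the block the Z-disc falls were 7 and without any 1 NTB array 1. The integrin-binding melusin (Itgb1bp2) fell by 1.96, and neuronal nitric oxide synthase (Nos1) rose by 1.11. Leaving out each array in turn kept the calls of Mylk4, Mybph, Actc1, Csrp3, Xirp1, Ankrd2, Flnc and Myoz3, and the other named calls with a value here were lost in at least 1 such fit.

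Nerve and regeneration genes moved both ways. Of 29 genes of the neuromuscular junction and denervation 3 rose and 3 fell, and the rises are Trim63, Fbxo32 and Gadd45a, already named. The falls were 0 without any 1 NTB array. The adult receptor subunit Chrne fell by 1.24 and acetylcholinesterase (Ache) by 1.56, while Chrna1 (-0.06, adjusted p = 0.982) and Myog (0.34, adjusted p = 0.648) were not called, with overlapping groups. Of 28 myogenic factors and satellite cell genes 2 rose and 1 fell: Mef2c, a muscle transcription factor, lay at 9.23, 9.17 and 8.45 in C26 arrays 1 to 3 and 10.89, 11.11 and 11.11 in NTB arrays 1 to 3 (-2.09 ± 0.22, adjusted p = 0.00145), and Myf6 rose by 0.91, as did Bex1. The list's median was 0.01 and -0.05 after quantile normalization, and 1 rise was called without C26 array 2 or any 1 NTB array. Of 7 satellite cell markers 0 were called (limma) and 1 had an unadjusted p under 0.05. Myostatin (Mstn) was not called, at 9.41, 9.42 and 9.28 in C26 arrays 1 to 3 and 9.59, 9.70 and 9.79 in NTB arrays 1 to 3. Of these genes, Mef2c stayed called in each of the 6 fits without 1 array, and the other named calls with a value here were lost in at least 1 such fit.

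Part of the genes of interleukin-6 family signalling moved. Of 37 genes on this list, which also holds other cytokine receptors, 6 rose and 1 fell (median 0.08). The oncostatin M receptor Osmr lay at 8.47, 8.50 and 8.37 in C26 arrays 1 to 3 and 6.59, 6.55 and 6.49 in NTB arrays 1 to 3 (1.90 ± 0.15, adjusted p = 0.000605). The receptor Il6ra rose by 1.75, the shared signal transducer Il6st by 0.85, the interleukin-4 receptor Il4ra by 0.95 and the transcription factor Stat3 by 1.27, and the ciliary neurotrophic factor receptor Cntfr fell by 1.42. The feedback inhibitor Socs3 lay at 7.74, 8.15 and 7.56 in C26 arrays 1 to 3 and 7.20, 6.83 and 6.48 in NTB arrays 1 to 3 and was not called (adjusted p = 0.0524). In the NF-kappa B list Tnfrsf12a, the receptor of TWEAK, rose by 1.35, Nfkbib by 1.14 and Rela by 0.86, while Sod2 fell by 0.56. Complement C4b rose by 1.80, and C3 was not called, at 9.15, 10.28 and 10.81 in C26 arrays 1 to 3 and 8.73, 9.08 and 8.66 in NTB arrays 1 to 3 (adjusted p = 0.105). Among chemokines Ccl6 rose by 1.39 and Cxcl14 by 0.97. Of 37 interferon response genes 0 rose and Gbp6 fell by 0.79 (median -0.01). The rises on the interleukin-6 family list were 9 without C26 array 3 and 3 without C26 array 2 or NTB array 1 or 3, with 4 falls with the block, and rising acute phase and complement genes numbered 4 of 35, 6 without C26 array 1, 7 with the block and 0 without NTB array 1. The calls of Osmr, Il6ra, Stat3 and Cntfr were kept in every fit that left out 1 array, and the other named calls with a value here were lost in at least 1 such fit.

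Part of the matrix genes fell. Of 27 collagens 5 fell and 0 rose (median -0.40), 7 without C26 array 3, 8 with the block and 3 without C26 array 2 or NTB array 3. Col1a1, the main fibrillar collagen, lay at 8.25, 8.47 and 8.49 in C26 arrays 1 to 3 and 10.31, 11.67 and 10.86 in NTB arrays 1 to 3 (-2.54 ± 0.30, 5.82-fold lower, adjusted p = 0.00239). Col1a2 fell by 2.21, Col3a1 by 1.44, Col6a1 by 1.17 and Col6a3 by 1.08, and the crosslinking enzyme Lox rose by 1.16. Among 23 tendon and small proteoglycan genes 5 fell and 1 rose: tenomodulin (Tnmd) lay at 5.71, 5.24 and 4.79 in C26 arrays 1 to 3 and 7.69, 8.19 and 7.83 in NTB arrays 1 to 3 (-2.66 ± 0.24, adjusted p = 0.000924), and keratocan (Kera), chondroadherin (Chad), fibromodulin (Fmod) and lumican (Lum) fell by 2.61, 2.38, 1.99 and 1.02, while Prg4 rose by 1.63. The falls of this list were 9 with the block, 7 without C26 array 3 and 3 without NTB array 2. Of 8 tenocyte markers 4 were called lower, which are Tnmd, Kera, Chad and Fmod again. Comp (-1.14), Scx (-0.63), Mkx (-0.38) and Thbs4 (0.12) were not called. For 7 of the 8 the C26 arrays lay below all NTB arrays. The mean level was 6.19 to 6.99 in C26 and 7.90 to 8.34 in NTB. Of 12 fibroblast markers 5 were called lower, 4 of them (Col1a1, Col1a2, Col3a1 and Lum) named above, and the mean level was 8.47 to 8.78 in C26 and 9.09 to 9.65 in NTB. The other called marker was Dpt (-1.19). Differences were negative for 9 of the 12, among them Gsn (-0.38), Dcn (-0.22), Mfap5 (-0.15) and Clec3b (-0.14), which were not called. The 3 positive ones, Pdgfra (0.16), Ly6a (0.71) and Pi16 (0.04), were not called either. Both marker levels rest in part on the genes reported here. The part of either tissue component in these falls was not tested. Fibrillin (Fbn1) fell by 1.11 on 1 row and differed by 0.07 on the other, Sparc fell by 0.82, Wnt5a by 1.50 and Sfrp2 by 1.24, and the protease Mmp3 rose by 1.58. Leaving out each array in turn kept the calls of Col1a1, Col1a2, Col6a1, Tnmd, Kera, Chad and Wnt5a, and the other named calls with a value here were lost in at least 1 such fit.

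Part of the chaperone genes rose, and antioxidant, iron and polyamine genes moved both ways. Of 41 cytosolic chaperones 7 rose and 0 fell (median 0.27), 16 without C26 array 3, 14 with the block and 1 without C26 array 2 or any 1 NTB array. Hspb7, a small heat shock protein of muscle, lay at 11.14, 10.81 and 10.80 in C26 arrays 1 to 3 and 9.50, 9.73 and 9.05 in NTB arrays 1 to 3 (1.49 ± 0.20, adjusted p = 0.0046), and Hspb1 rose by 1.23, Hsph1 by 1.08 and Hspa1a, which has a near-identical copy, by 0.99 on 1 of 3 rows. Among 48 antioxidant genes 6 rose and 2 fell, with glutathione peroxidase 3 (Gpx3) at 10.67, 10.75 and 10.54 in C26 arrays 1 to 3 and 9.13, 9.27 and 8.94 in NTB arrays 1 to 3 (1.54 ± 0.15, adjusted p = 0.00118), haem oxygenase (Hmox1) rising by 1.44 and Gsta4 falling by 1.40. Antioxidant rises were 10 without C26 array 3 or with the block and 1 without C26 array 2 or NTB array 2 or 3, and the falls were 4 with the block and 1 without C26 array 2 or any 1 NTB array. Iron genes gave 3 rises and 5 falls of 36, with 7 rises with the block, 5 rises without C26 array 1, 0 rises without NTB array 1 and 1 fall without any 1 NTB array. The transferrin receptor Tfrc lay at 7.41, 7.38 and 6.94 in C26 arrays 1 to 3 and 10.11, 10.40 and 10.41 in NTB arrays 1 to 3 (-3.06 ± 0.19, adjusted p = 0.00015). Hemojuvelin (Hjv) fell by 1.18 and myoglobin (Mb) by 0.93, and Alas2, the erythroid haem enzyme, rose by 1.21, with the erythroid markers above. Polyamine genes gave 2 rises and 4 falls of 25, with the oxidase Smox at 8.93, 8.81 and 8.27 in C26 arrays 1 to 3 and 11.19, 11.45 and 10.91 in NTB arrays 1 to 3 (-2.51 ± 0.21, adjusted p = 0.000748). The antizymes Oaz1 and Oaz2 fell by 0.87 and 1.19, and the acetyltransferase Sat1 rose by 0.98. Polyamine rises were 4 without C26 array 3 and 0 without C26 array 2 or NTB array 1 or 3, and the falls were 2 without C26 array 2 or any 1 NTB array. Of these genes, Hspb7, Gpx3, Gsta4, Tfrc and Smox stayed called in each of the 6 fits without 1 array, and the other named calls with a value here were lost in at least 1 such fit.

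Clock genes moved both ways, 4 of 24 rising and 5 falling. The activator Arntl (BMAL1) lay at 8.34, 7.91 and 7.86 in C26 arrays 1 to 3 and 6.30, 6.09 and 6.08 in NTB arrays 1 to 3 (1.88 ± 0.18, adjusted p = 0.00106), and its output factor Dbp at 7.26, 7.67 and 6.64 in C26 arrays 1 to 3 and 9.86, 10.06 and 9.80 in NTB arrays 1 to 3 (-2.72 ± 0.25, adjusted p = 0.000915). The groups of both were apart on all arrays. Nfil3, a repressor that opposes Dbp, rose by 1.64, while Bhlhe41 fell by 1.70 and Ciart by 1.64. The time of day of collection is not given in the sources used here. Without any 1 NTB array the falls were 1. The calls of Arntl and Dbp were kept in every fit that left out 1 array, and the other named calls with a value here were lost in at least 1 such fit.

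Of 39 cell cycle and replication genes 0 were called either way (limma, adjusted p under 0.05), with 1 higher and 3 lower at an unadjusted p under 0.05 and 1 called lower when C26 array 3 was left out or with the block. Of 45 splicing factors 2 rose (Hnrnpf by 0.86, Hnrnpu by 0.75), of 49 nuclear transport genes 3 rose (Tpr, Ipo4 and Ipo13) and of 50 chromatin genes 1 rose, the methyltransferase Ezh1 (1.05), and 3 fell (Hdac9 by 0.81, Kmt5a by 0.84, Kdm2b by 0.83). Over all rows 1.96% rose and 1.62% fell, and the chromatin rise, 1 of 50, lies near the first share. Without C26 array 2 or NTB array 2 or 3 none of these 3 lists held a rise, and without C26 array 3 the rises were 5, 6 and 2, with 5 splicing factors rising with the block. The 3 chromatin falls were 0 without any 1 NTB array. Among 31 secreted factors Fndc5, the irisin precursor, fell by 1.23, besides Ostn, Igfbp5 and Sparc. The growth factor Gdf11 fell by 0.91 and Tgif1 rose by 1.21 among 45 genes of the TGF-beta family. The immediate early genes Nr4a3 and Atf3 rose by 1.50 and 1.12, and the phosphatase Dusp10 fell by 1.44. Leaving out each array in turn kept the calls of Dusp10, and the other named calls with a value here were lost in at least 1 such fit.

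By the naming rule 10 genes are given whose groups did not overlap but which did not pass the test. The largest rises were Ddit4 (1.73, adjusted p = 0.0827), an mTORC1 inhibitor, Tmem100 (1.36), C3 (1.26), Arxes2 (1.22) and Ifi207 (1.16). The largest falls were Mss51 (-1.99), Ddit4l (-1.57), Akr1b10 (-1.55), Phkg1 (-1.49) and Cox7a1 (-1.44). Mss51 lay at 11.45, 10.80 and 8.87 in C26 arrays 1 to 3 and 12.37, 12.30 and 12.42 in NTB arrays 1 to 3, with C26 array 3 far below the other 2. These 10 were chosen for lying apart, so the separation is no further evidence. All 10 had an adjusted p under 0.05 with the replicate block.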

How the data were processed

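RNA of whole gastrocnemius from 3 C26 and 3 NTB mice was measured on 1-colour arrays (MoGene-1_0-st-v1, per the file headers), 250 ng of RNA a sample. The authors deposited log2 values made with RMA, and GCOS, Partek and genome build mm8 are also named per the submitters' processing notes, without versions. Arrays hold no counts, so precision is limited by the number of arrays. A second deposited table gave gene symbols, while 12 value columns in it went unused, since no sample carries their names. Its symbols stop after 7 characters: of 7122 such symbols 4297 fitted a single gene of the RefSeq table (GRCm38.p6) and were named, and 20868 rows were named in all.

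The 6 arrays were fitted with limma 3.58.1 in R 4.3.3 (lmFit, and eBayes with a variance trend), with 2 group means and no other term. Tests were two-sided, and p-values were adjusted by Benjamini-Hochberg over the 23819 rows with a symbol. No filter on dim rows was applied. For lists the row with the highest mean over the 6 arrays stands for a gene; lists get counts and medians and no test. The fit was tested on simulated data. The members and lists were chosen with earlier results of these data known. Named are the 15 largest rises and 15 largest falls among called rows with groups apart and a single, non-predicted gene, up to 6 called members per list, the 5 largest rises and falls that were apart but not called, a set of 24 genes always given, and the cell type markers.

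Deviations of same-numbered arrays from their group means correlated at 0.380, 0.334 and 0.552. The labels state no pairing, and arrays of different number were not compared in this way. Whether the replicate numbers pair the arrays was therefore not tested. Counts with the number as a block are printed beside the counts given for gene lists where they move them by over 1.5 times. The 15 alternatives were the 12-array model, array weights, the block, quantile normalization, median centring, all rows, 1 row per gene, no variance trend, a mean level of at least 5, and leaving out each array. Some genes that the naming rule picks are not reported here.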

Additional observations from a re-analysis of the deposited data

Results flagged for a closer look

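The 11737 rows without a gene symbol were outside the comparison. In the fit over all 35556 rows, 26 of them were called higher in C26 gastrocnemius and 9 lower (limma, adjusted p under 0.05), and 983 had an unadjusted p under 0.05. In that fit 246 of all 35556 rows were called higher and 160 lower. Among the 23819 rows with a symbol, 3442 had an unadjusted p under 0.05 in the main comparison (limma). The rows without a symbol thus held smaller shares of calls and of low p-values. These rows are given because the tests of named genes leave them out. The largest rise among them was 2.36 and the largest fall was -2.65 on the log2 scale. They were not named.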

How the results depend on the processing

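All 851 called rows kept their direction with quantile normalization and with median centring. In the other alternatives no direction could change, since the groups of these rows did not overlap and the values were not rescaled. Of the 15 alternatives 2 hold fewer of the called rows (741 with 1 row per gene and 845 with a mean of at least 5). Against 851 calls (466 higher, 385 lower), the 12-array model gave 2578 (1448 and 1130), array weights 3388 (2256 and 1132), the replicate block 2075 (1117 and 958) and quantile normalization 1422 (683 and 739). Fewer were called with median centring, 509 (268 and 241), and over all rows of the table, 406 (246 and 160). The cause of these shifts was not tested. Without 1 array the total ranged from 263 to 1698, the rises from 136 to 1161 and the falls from 97 to 537. The share of calls that were higher was 54.8%, 66.6% with array weights, and 46.2% to 68.4% without 1 array. With 1 row per gene, no variance trend or a mean of at least 5, totals were 905, 918 and 1041. Of 252 named calls, 0 were lost with the block, the 12-array model, array weights or without C26 array 3, 2 with quantile normalization, 10 without the trend, 75 with median centring and 110 over all rows. Without C26 arrays 1 and 2, 29 and 129 were lost, and without NTB arrays 1, 2 and 3, 135, 138 and 141. Medians of 3 of 65 lists changed sign with quantile normalization or median centring, each lying within 0.05 of 0. With 3 arrays a group and a residual SD up to 0.331, no difference below 0.52 was called.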
